A study of Mus musculus with 2 samples.

Results

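The sites described here are the Foxf2-FLAG peaks at 9 genes that are switched on by fibroblast growth factor (FGF) signalling and mostly feed back on it: Spry1, Spry2, Spry4, Spred1, Spred2, Etv1, Etv4, Etv5 and Dusp6. A peak was counted for a gene if its centre lay inside the gene, or if no protein-coding gene had a transcription start site (TSS) closer to it and the distance was at most 100 kb (GENCODE vM1 genes on the mouse build mm9). The centre was the midpoint of the deposited region, which need not be where its signal was strongest. Of 9165 peaks in all, 13 met the counting rule, at 8 of the 9 genes. The labelled tissue was palatal shelf, the outgrowth of the upper jaw that forms the palate, from mouse embryos at E13.5 (embryonic day) that were homozygous for a 3xFLAG tag on the endogenous Foxf2 gene. There was 1 anti-FLAG chromatin immunoprecipitation (ChIP) library of 26849463 tags, from 50 pairs of shelves, and 1 input library of the same tagged tissue without antibody, of about 19200000 tags as computed from the deposited columns. There were no replicates and no untagged animals, so no difference between peaks has a replicate check. Whole shelves hold mesenchyme, epithelium, vessels and nerves, and a peak list measures no expression. Under the same rule, 23.9% of all protein-coding genes had a peak. Of the marker genes looked up, peaks were present at 8 of 8 for palatal mesenchyme (Wilson 95% interval 67.6 to 100%). They were present at 3 of 8 for epithelium (13.7 to 69.4%), 3 of 6 for endothelium (18.8 to 81.2%) and 1 of 3 for muscle (6.15 to 79.2%). The counts were 0 of 4 for glia and neurons (upper limit 49.0%) and 0 of 3 for blood cells (56.1%). The mesenchyme markers were Twist1, Prrx1, Osr2, Pax9, Msx1, Foxf2 itself, Pdgfra and Col1a2. Apart from mesenchyme, every interval included the share over all genes. These counts were not tested, and the length of sequence around the marker genes was not allowed for.

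FGF ligands bind receptor tyrosine kinases that signal through RAS and the ERK kinases. ERK activity raises transcription of the PEA3 group of ETS transcription factors (Etv1, Etv4, Etv5), which carry the transcriptional output of the pathway, and of a set of inhibitors. Sprouty and Spred proteins restrain signalling upstream of or at RAF, and Dusp6 is a cytoplasmic phosphatase that removes the activating phosphates from ERK. In the palate, FGF signals pass between the epithelium and the mesenchyme, where Foxf2, a forkhead transcription factor, is made.

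Sequences from the Etv5, Etv1 and Spry1 peaks are shown to let the forkhead sites be read in place; the sites of the Spry4 peaks are given by position alone. A forkhead site was GTAAACA, its variant with a leading A (ATAAACA), or either of them with T as the next to last letter (GTAAATA or its variant ATAAATA), on either strand. Such sites stand in capitals in the first 5 sequences that follow, each read 5′ to 3′ from mm9. The stretch just upstream of the outermost Etv5 start (chr16:22439793-22439992, minus strand, the strand of the gene) holds both forkhead sites of the Etv5 promoter peak.
Etv5 upstream: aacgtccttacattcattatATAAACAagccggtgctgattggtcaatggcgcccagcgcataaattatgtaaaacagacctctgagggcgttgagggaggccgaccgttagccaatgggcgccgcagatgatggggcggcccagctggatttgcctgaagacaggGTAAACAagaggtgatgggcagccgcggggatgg
The central 200 bp of the peak near an internal Etv1 start (chr12:39510849-39511048, plus strand) hold GTAAACA.
Etv1 internal start: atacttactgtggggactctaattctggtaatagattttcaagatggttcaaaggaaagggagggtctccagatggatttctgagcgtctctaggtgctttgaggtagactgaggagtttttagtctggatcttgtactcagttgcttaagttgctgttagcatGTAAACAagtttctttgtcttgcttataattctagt
The central 200 bp of the peak beyond the 3′ end of Etv1 (chr12:39633569-39633768, plus strand) hold the reverse complement of GTAAATA.
Etv1 downstream: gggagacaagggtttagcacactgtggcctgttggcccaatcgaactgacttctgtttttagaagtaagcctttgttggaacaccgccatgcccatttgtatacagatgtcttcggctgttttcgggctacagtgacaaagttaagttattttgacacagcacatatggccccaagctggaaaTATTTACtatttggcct
A stretch of the distal Etv5 peak (chr16:22504564-22504690, plus strand) and a stretch of the Spry1 peak (chr3:37455261-37455387, plus strand) hold GTAAACA away from the peak centre.
Etv5 distal: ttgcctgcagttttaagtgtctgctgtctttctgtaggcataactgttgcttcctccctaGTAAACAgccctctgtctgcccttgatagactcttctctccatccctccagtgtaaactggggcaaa
Spry1 distal: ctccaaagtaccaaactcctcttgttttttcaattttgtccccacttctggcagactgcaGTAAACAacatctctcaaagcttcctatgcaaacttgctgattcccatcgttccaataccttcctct
The Spred2 peak held no forkhead site. Its stretch (chr11:19839397-19839496, plus strand) is shown for the letters CAGGAA, an ETS core, and their reverse complement, in capitals.
Spred2 intron: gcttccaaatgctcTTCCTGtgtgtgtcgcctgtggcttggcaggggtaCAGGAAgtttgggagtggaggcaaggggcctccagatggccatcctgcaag

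Peaks were present at 8 of the 9 genes (88.9%, Wilson 95% interval 56.5 to 98.0), and 23.9% of all 22372 protein-coding genes had one under the same rule. Spry4 had 4 peaks, Etv1 and Etv5 had 2 each, Spry1, Spry2, Spred2, Etv4 and Dusp6 had 1 each, and Spred1 had none. The 9 genes have long surroundings: the sequence within 100 kb that was nearer to their TSSs than to any other had a median of 164 kb per gene, against 46.4 kb over all protein-coding genes. Per Mb of such sequence there were 8.86 peaks (95% Poisson interval 4.72 to 15.2) at these genes and 4.33 over all genes. Without Spry4 the value was 6.54 peaks per Mb (2.99 to 12.4), and without Etv5 it was 8.60 (4.29 to 15.4). Both intervals include the value over all genes. With any other gene left out, the lower end was 4.47 or more, close to that value. These genes were chosen with earlier results of the same data known, so the counts are a description and were not tested.

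**Figure D1:**
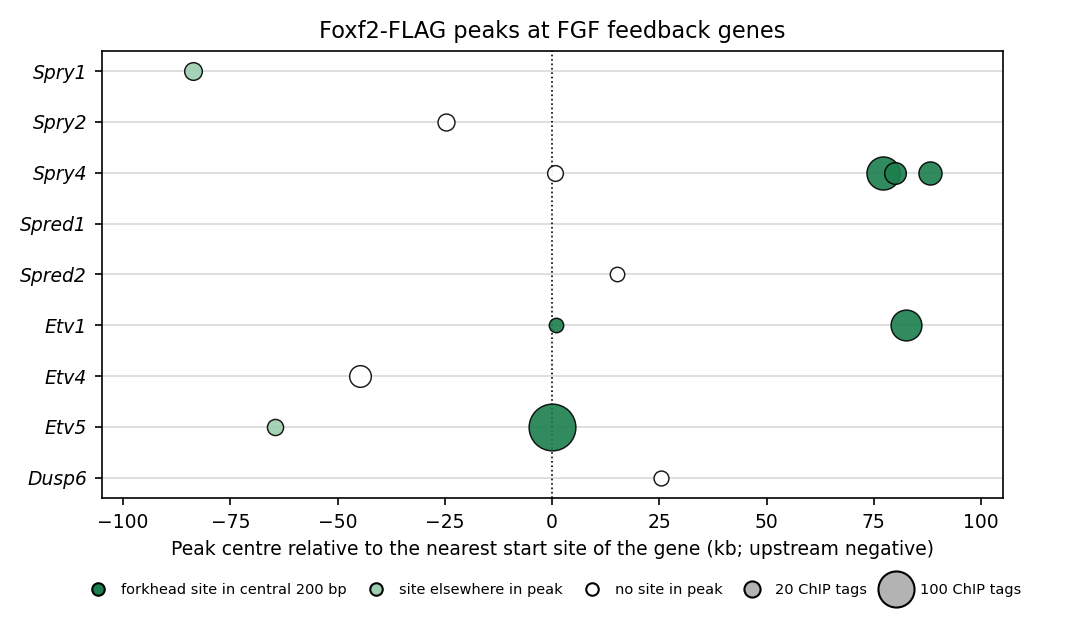
Each circle is a Foxf2-FLAG peak, placed by its distance from the nearest start of the gene on its row (kb, upstream negative), with an area that grows with its ChIP tags and a fill that shows where it holds a forkhead site. At the far right, 3 dark green circles (forkhead site in the central 200 bp) belong to Spry4 and 1 to Etv1. The Etv1 and Etv5 promoter peaks, next to the start, are dark green too. The largest circle is the Etv5 promoter peak with 168 ChIP tags, and Spred1 has none.

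Among the Sprouty genes, which encode inhibitors of receptor tyrosine kinase signalling, Spry4 (chr18:38745922-38760922, minus strand) had the most peaks. Among all protein-coding genes, 2.48% had 3 or more and 1.18% had 4 or more. The highest-scoring peak of all 13 lay 77.2 kb downstream of the Spry4 TSS at chr18:38683438-38683938, with a deposited score of 84. The score is the peak caller's own measure of strength. It lay within 1 of the tag count in 56.7% of the 500 bp peaks. This peak held 84 ChIP tags and 6 input tags, a deposited 10.03-fold excess after scaling for depth (exact 95% interval 4.42 to 28.1), just over the 10-fold the caller required.

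A second Spry4 peak at chr18:38680765-38681265 had 36 ChIP tags and 2 input tags, and a further one at chr18:38672627-38673258 had 41 and 2. Their scores were 33 and 37, and their deposited folds 12.9 (3.32 to 110.5) and 14.7 (3.81 to 125.3). The 3 centres spanned 10.7 kb of intergenic sequence, and each had another of the 3 within 10 kb, as 14.9% of all peaks did, while 2.13% of all peaks had at least 2 such neighbours, as the middle one did. All 3 held a forkhead site in their central 200 bp: ATAAACA at 38683646-38683652 and 38683690-38683696 in the strongest, ATAAACA at 38681105-38681111 in the middle one, and ATAAACA at 38672917-38672923 with GTAAACA at 38673013-38673019 in the outermost. The divergent gene 9630014M24Rik starts 266 bp from the Spry4 TSS, so these peaks fell to Spry4 by that margin, and the miRNA gene AC134576.1 starts nearer to them, at 45.4 to 56.1 kb.

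The remaining Spry4 peak lay inside the gene, outside its exons, 746 bp downstream of the TSS (chr18:38759926-38760426). It was weak, at a score of 21 with 19 ChIP tags and 1 input tag, and it held no forkhead site. The deposited excess was 13.6-fold (2.16 to 565.5).

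Spry2 (chr14:106291166-106296036, minus strand) had 1 peak, 24.6 kb upstream in intergenic sequence at chr14:106320410-106320910. It had 22 ChIP tags and 1 input tag (15.8-fold, 2.55 to 650.4), a score of 23 and no forkhead site. The next protein-coding TSS was 172 kb away, so the assignment to Spry2 had no near rival.

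Spry1 (chr3:37538869-37543520, plus strand) had 1 peak, 83.7 kb upstream at chr3:37454896-37455396, with 24 ChIP tags, no input tag and a score of 27. Its deposited 34.4-fold excess rests on the 0.5 tags that the caller wrote for none. The exact 95% interval began at 4.31 and had no upper end, and with 3 input tags, the limit that a count of 0 allows, the quotient would be 5.73. This peak lay in the neighbouring gene Spata5 and in an exon of the pseudogene Gm12564. It fell to Spry1 only by starts of protein-coding transcripts, and when starts of non-coding transcripts of protein-coding genes counted as well it fell to Spata5, leaving 7 genes and 12 peaks.

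The Spred genes, which encode membrane-bound relatives of Sprouty that hold back RAF activation, were at the low end. Spred2 (chr11:19824378-19924029, plus strand) had 1 intronic peak 15 kb downstream of its nearest TSS at chr11:19839222-19839722. Its score of 17 was the lowest in the list, from 16 ChIP tags and 1 input tag (11.5-fold, interval 1.78 to 480.7). A stronger peak with a score of 66, and 181 ChIP tags against 9 input tags, had Spred2 as its nearest gene but lay 176 kb away, outside the limit. Just inside the limit was the outermost Spry4 peak at 88.0 kb. Spred1 (chr2:116947110-117008015, plus strand) had no peak within 100 kb, and the nearest lay 177 kb away and was nearer to Tmco5. A region with signal under the caller's thresholds would not be listed, so weaker binding at Spred1 was not measurable here.

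Etv5 (chr16:22381382-22439792, minus strand), a PEA3 group ETS factor, had the peak with the most tags. It spanned chr16:22439115-22440364, from 572 bp upstream to 677 bp downstream of the outermost start, with its centre in the 5′ untranslated exon and 48 bp upstream of an inner start. There were 168 ChIP tags and 6 input tags in it, a 20.1-fold excess (interval 9.02 to 55.4). Of 2357 peaks within 1 kb of a TSS, 22 (0.933%) had more tags and 63 (2.67%) were wider than its 1249 bp. Its score of 24 was nevertheless under the promoter median of 26. The mean over the region was 67.3 ChIP tags per 500 bp, above the score, a property it shared with 1382 of the 3168 peaks wider than 500 bp (43.6%).

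The Etv5 promoter peak held GTAAACA at 22439820-22439826, 28 bp upstream of the outermost start, and ATAAACA at 22439966-22439972, 174 bp upstream. Both read on the strand of the gene and stand in capitals in the upstream sequence printed above. The central 200 bp were 73.0% GC, with 23 CpG dinucleotides and 2 matches to the GC box GGGCGG, close to the promoter median of 71% GC and 21 CpG. The other Etv5 peak lay 64.7 kb upstream in an intron of Dgkg (chr16:22504195-22504695), at a score of 21 with 20 ChIP tags and 1 input tag (14.3-fold, interval 2.29 to 593.8). It held GTAAACA, 182 bp from its centre. The non-coding gene 9230117E06Rik starts nearer, 7.11 kb from this peak.

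Etv1 (chr12:39505967-39594802, plus strand) had a strong peak in intergenic sequence beyond its 3′ end, 82.4 kb downstream of its nearest protein-coding TSS, at chr12:39633288-39634050. Its score was 55, from 73 ChIP tags and 4 input tags (13.1-fold, interval 4.89 to 49.3). The next protein-coding TSS, that of Dgkb, was 888 kb away. Its weaker peak (chr12:39510699-39511199) was in an intron, 853 bp downstream of an internal start, and scored 18 from 16 ChIP tags and 1 input tag, an 11.5-fold excess (interval 1.78 to 480.7). The forkhead sites lay within 100 bp of the centre in both, GTAAATA at 39633752-39633758 and GTAAACA at 39511013-39511019.

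Etv4 (chr11:101631056-101646685, minus strand) had 1 peak, 44.9 kb upstream at chr11:101691183-101691939, in the interval between Etv4 and Meox1, whose TSS was 64.1 kb away. Its score was 27, from 36 ChIP tags and 2 input tags (12.9-fold, interval 3.32 to 110.5), and it held no forkhead site. CAGGAA occurred 5 times in this 756 bp region. The letters TGANTCA of AP-1 sites, a pattern that matches on both strands at once, were also present.

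Dusp6 (chr10:98725865-98730122, plus strand), the ERK phosphatase gene, had 1 peak, 25.5 kb downstream of its TSS in intergenic sequence at chr10:98751084-98751584. The peak was weak, at a score of 18 from 17 ChIP tags and 1 input tag (12.2-fold, interval 1.91 to 508.9), and it held no forkhead site. No peak lay at its promoter.

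**Figure D2:**
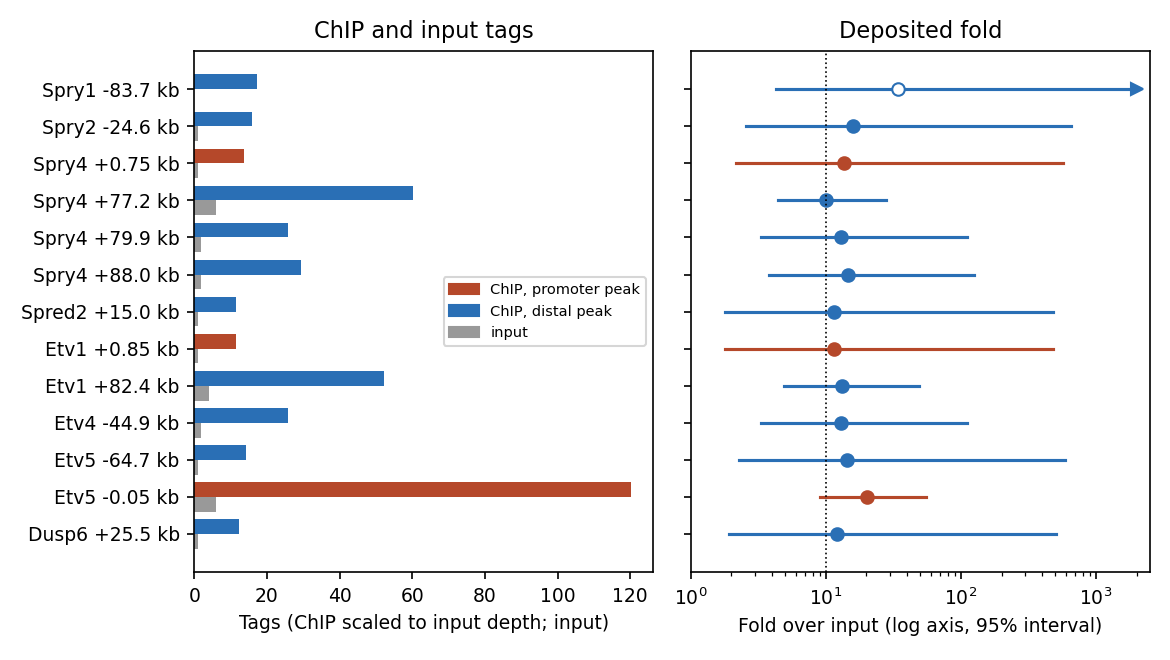
Bars on the left give ChIP tags, brought to the depth of the input, and input tags (grey) for each of the 13 peaks, named by gene and distance from its start. Points on the right give the deposited fold over input on a log axis with exact 95% intervals for counting error, the dotted line marks the 10-fold the caller required, and the open Spry1 point has no input tag and an interval without upper end; every interval begins under 10-fold.

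The counts were small throughout. At most 1 input tag lay under 7 of the 13 peaks (53.8%, 29.1 to 76.8) and under 49.5% of all peaks. Scores exceeded the median of 25 over all peaks in 6 of 13 (46.2%, 23.2 to 70.9), against 48.7% of all peaks. With at least 30 ChIP tags required, 6 peaks were left, at Spry4, Etv1, Etv4 and Etv5.

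Promoter and distal peaks were compared next, with promoter meaning a centre within 1 kb of a TSS of the gene. Promoter peaks numbered 3 of 13 (23.1%, Wilson 95% interval 8.18 to 50.3), at Spry4, Etv1 and Etv5, and 25.7% of all peaks lay within 1 kb of a protein-coding TSS. By gene, 3 of 9 had a promoter peak (33.3%, 12.1 to 64.6), against 10.6% of all protein-coding genes, and the same 8 genes that had any peak had a distal one. With 500 bp as the limit, the Etv5 peak was the 1 promoter peak left.

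Promoter scores were 18, 21 and 24. Distal scores ran from 17 to 84 with a median of 27, so the groups overlapped and the medians differed by -6 (promoter minus distal). Over all peaks the promoter median was 26 and the distal median 24. By tags the promoter median was also the lower: the promoter peaks held 16, 19 and 168 ChIP tags, and the distal peaks 16 to 84 with a median of 30. By deposited fold the promoter median of 13.6 lay above the distal 12.98, so the direction turned. Over all peaks the fold medians stood in the same order, at 13.6 for promoter and 12.9 for distal peaks. The tag medians over all peaks were 30 in both classes. Peaks of 1 library are not replicates, and these differences were not tested.

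**Figure D3:**
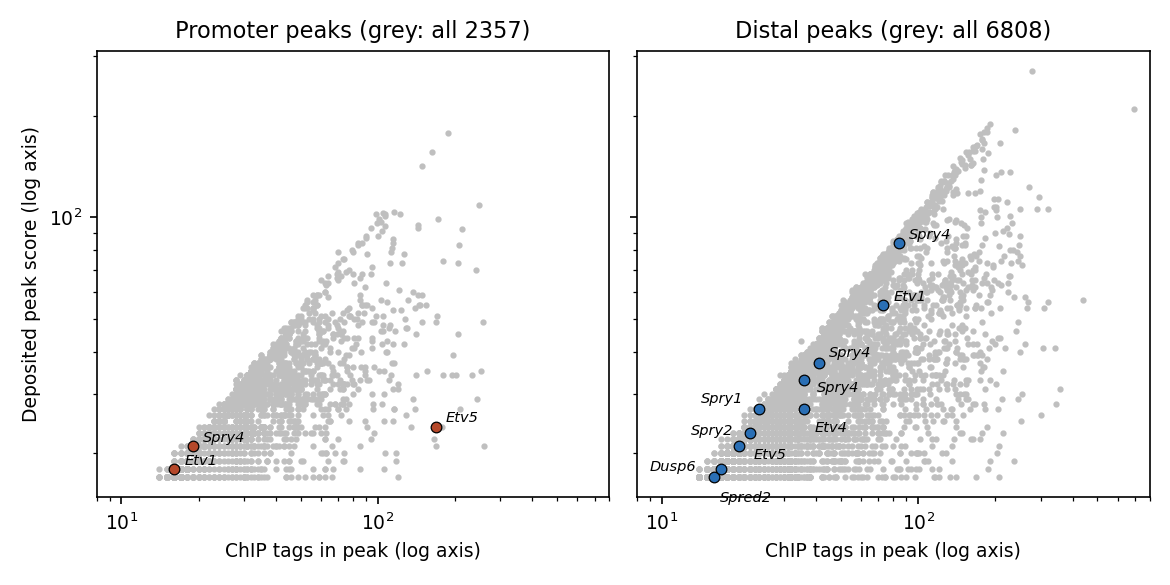
Deposited score against ChIP tags per peak, both on log axes, for promoter peaks (left) and distal peaks (right), with all peaks of the class in grey and the peaks of the 9 genes in colour. Etv5 stands at 168 tags with a score of 24, to the right of most promoter peaks of that score, and Spry4 leads the distal peaks with a score of 84.

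Forkhead sites in the central 200 bp were present in 2 of 3 promoter peaks (66.7%, 20.8 to 93.9), those of Etv1 and Etv5, whereas 9.89% of all promoter peaks held one. Among distal peaks they were present in 4 of 10 (40.0%, 16.8 to 68.7), against 51.5% of all distal peaks. The 4 were the 3 Spry4 peaks and the Etv1 peak, which were the highest-scoring of the distal group, with scores of 33 to 84. Across the whole width of the peak, 2 of 3 promoter and 6 of 10 distal peaks held a site, where the shares over all peaks were 24.1% and 78.2%. In the central 100 bp the order of the shares turned, to 0 of 3 promoter and 2 of 10 distal peaks, both at Spry4, against 4.75% of all promoter and 30.5% of all distal peaks. The distal peaks without any site were those of Spry2, Spred2, Etv4 and Dusp6, with scores of 17 to 27. Those of Spry1 and Etv5, with a site only away from the centre, scored 27 and 21. Scores with and without a site were not compared over all peaks.

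Base composition differed between the promoter peaks themselves. Their central 200 bp were 39.5% GC at Etv1, 56.5% at Spry4 and 73.0% at Etv5, and 97.9% of all promoter peaks had a higher GC content than the Etv1 peak. Distal peaks ran from 38.0% to 57.5% with a median of 44.2%, and all distal peaks had a median of 43.0%. The Etv1 peak thus lay among the distal values. The 4 forkhead sites read backwards serve as a guide to base composition, although ATAAATA reads the same both ways. They occurred in 0 of 3 promoter centres (Wilson 95% upper limit 56.1%) and 2 of 10 distal centres (5.67% to 51.0%), against 3.52% and 24.05% of all promoter and distal peaks.

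**Figure D4:**
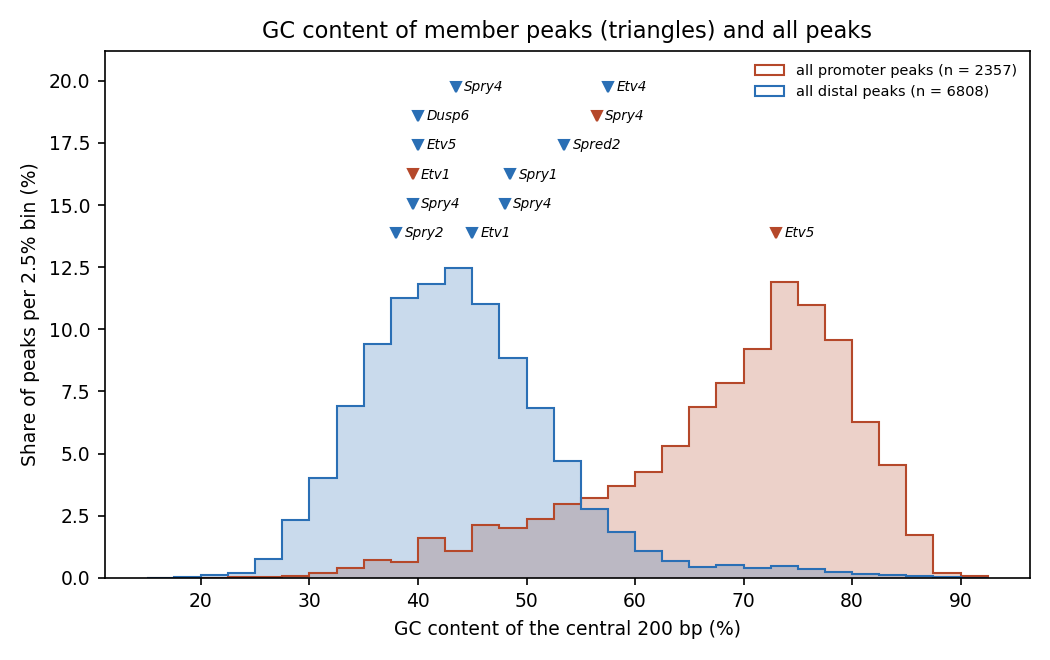
Histograms give the share of all promoter and all distal peaks in bins of GC content of the central 200 bp, and triangles mark the 13 peaks of the FGF feedback genes, coloured by class and stacked only for legibility. The Etv5 promoter peak at 73.0% lies within the promoter distribution, and the Etv1 peak near its internal start at 39.5% lies within the distal one.

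Letters of other factors were counted in the same central windows. The ETS core CAGGAA occurred in 4 of 10 distal centres (40.0%, 16.8 to 68.7), at Spry2, Spry4, Spred2 and Dusp6, and in 20.2% of all distal centres. Over the whole peak it occurred in 5 of 10 distal peaks, close to the 48.3% of all. The ETS core CCGGAA occurred in 0 of 13 (Wilson 95% upper limit 22.8%) and in 5.11% of all peaks. The SOX letters AACAANG occurred in 3 of 10 distal centres against 17.6% of all, and in 2 of the 3 they overlapped a forkhead site. Over the whole peak the SOX count was again 3 of 10, under the 38.5% of all distal peaks. None of the 13 centres held the RUNX letters TGTGGT, which 13.0% of all centres held. The same was true of the AP-1 letters TGANTCA (4.71% of all) and of the cAMP response element letters TGACGT (2.49% of all). The GC box GGGCGG occurred in 1 of 3 promoter centres (33.3%, 6.15 to 79.2), that of Etv5, against 54.6% of all promoter centres. Over the whole peak it was again 1 of 3 promoter peaks, against 81.9% of all. Among distal centres it occurred in 0 of 10 (Wilson 95% upper limit 27.8%), against 5.19% of all.

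Other genes of the FGF pathway came from a list of 73, of which 72 matched a protein-coding gene. Peaks were present at 34 of them (47.2%, 36.1 to 58.6), against the 23.9% of all protein-coding genes. Peaks per Mb of surrounding sequence were not computed for this list, so long genes or surroundings were not allowed for. Ligand genes had a peak in 6 of 18 cases, the highest-scoring being Fgf7 (score 51, 45.3 kb from the TSS) and Fgf18 (36, 41.6 kb). Receptor and co-receptor genes had one in 3 of 7: Fgfr1 (50, 50.9 kb), Fgfr2 and the co-receptor gene Kl (21, 97.7 kb). Fgfr2 is annotated with a span of 3009 kb, and 24 peaks met the rule there. By its TSSs alone 5 were assigned, the best at a score of 53 and 63.6 kb away.

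Of all protein-coding genes, 23.9% had a peak and 10.6% had a promoter peak. Genes of the adaptors and the RAS-ERK cascade had a peak in 9 of 16 cases, and all 9 had a promoter peak. The adaptor gene Frs2 (score 48) and the kinase gene Map2k2 (44) led this group. Other feedback inhibitors had one in 4 of 8: Il17rd (55, 7.65 kb), Flrt3 (45, 1.77 kb), and the RAS inactivators Rasa1 (32) and Nf1 (30). Il17rd, Rasa1 and Nf1 had promoter peaks. Other MAP kinase phosphatases had one in 4 of 9, Dusp10 (68) and Dusp1 (46) and Dusp16 (39) within 1 kb of a TSS and Dusp4 (33) 57.3 kb away. Other ETS factors and immediate early genes had one in 8 of 14, led by Ets1 (68, 23.4 kb) and Ets2 (50, 38.6 kb). Differences between these groups were not tested.

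**Figure D5:**
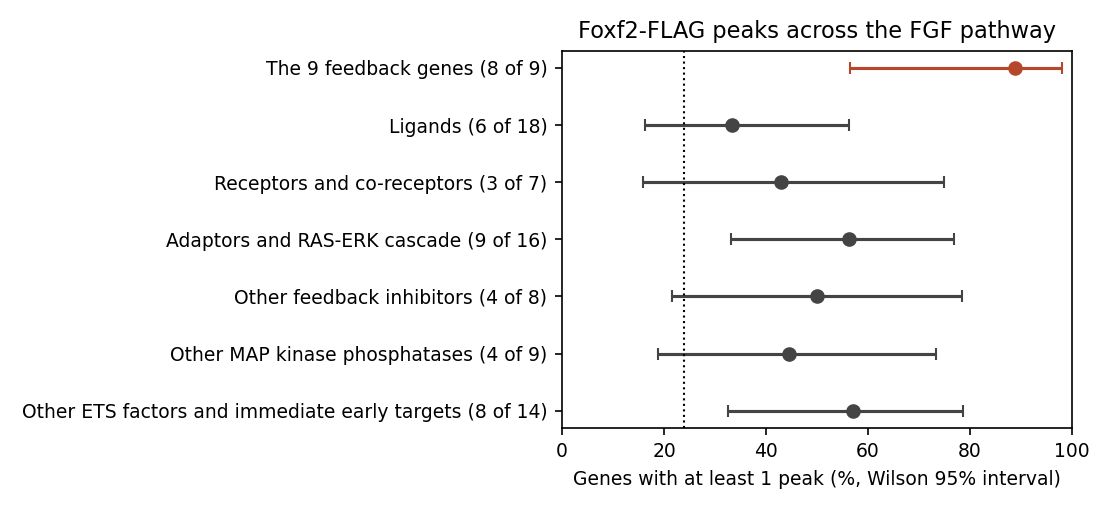
Points give the share of genes with at least 1 Foxf2-FLAG peak, in percent with Wilson 95% intervals, for the 9 feedback genes and for 6 other roles in the FGF pathway, and the dotted line marks the 23.9% of all protein-coding genes. The feedback genes stand at 88.9%. The other roles lie between 33.3% for ligands and 57.1% for ETS factors and immediate early genes, with intervals that overlap one another. The shares are not adjusted for the length of sequence around the genes.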

How the data were processed

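The authors deposited 1 peak list, made from 1 ChIP library against 1 input library. Reads were aligned to mm9, and Bowtie 1.0.0, SAMtools 0.1.19 and HOMER were named, per the submitters' processing notes. Peaks were called with HOMER findPeaks in its histone style, which stitches neighbouring 500 bp peaks, with at most 1 tag per position, a fragment length of 112 bp, a tag threshold of 17 and 10-fold excesses over input and over the surrounding 10000 bp, per the file headers. ChIP tags were deposited as a signal scaled to 10000000 tags. Multiplied back, values lay within 0.134 of whole numbers (tolerance 0.15). Input tags, the deposited ratio (fold), the deposited score and the authors' p-value were used as given; the last only through the caller's threshold.

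Peaks were joined to GENCODE vM1 protein-coding transcript starts on NCBIM37, the assembly of mm9, with Python 3.11.15 and pysam 0.24.0; assignment and motif search were tested on simulated data. Fold intervals are exact and conditional on ChIP and input tags. Intervals of shares are Wilson 95% intervals. All cover counting error only, since there were no replicates. The genes and lists were chosen with earlier results of these data known, so nothing was tested across lists. All 9 genes and all their peaks were named; in other roles, the 2 highest-scoring genes and every gene of a count of 5 or fewer. Alternatives varied distance limits, starts, promoter width, peak filters and motif windows. Input values came from the input tag column of the peak list alone.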

Additional observations from a re-analysis of the deposited data

How the results depend on the processing

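Of 73 alternative values, 48 stayed within 1.5 times the reported count or median difference, or within the reported share's Wilson interval, 24 did not, and 1 turned direction. The 8 genes and 13 peaks (3 promoter, 10 distal) became 4 genes and 4 peaks (1 distal) within 10 kb, where 19.3% of all genes had a peak, and 7 genes and 7 peaks (4 distal) within 50 kb (22.3%). With genes of every biotype competing, 7 genes and 8 peaks (5 distal) were left. Peaks with scores above the list median left 4 genes and 6 peaks (0 promoter, 6 distal; 13.3% of all genes), a 15-fold minimum left 3 genes and 3 peaks (1 promoter, 2 distal; 10.3%), and 30 ChIP tags left 4 genes and 6 peaks (1 promoter, 5 distal; 13.9%). With every biotype competing, the lost peaks had a nearer start of another gene. In the other cases fewer peaks or a shorter reach enter by construction. A promoter limit of 500 bp left 1 promoter peak, a median score difference of -1 and a forkhead share of 100% in that peak. In the central 100 bp the promoter share was 0% and the distal share 20%. The difference in medians was -11 in ChIP tags and 0.63 in deposited fold, the reversal; its cause was not tested. After the data were seen, 2 alternatives were added: starts of all transcripts gave 7 genes and 12 peaks, and every peak within 100 kb gave 16. The share over all genes was not computed for these 2, nor with every biotype competing. In the wider FGF list, 34 genes had a peak, against 23.9% of all genes. Within 10 kb it was 31 (19.3% of all genes), and with scores above the list median 24 (13.3%). No paired analysis was possible because there was 1 library of each kind. With 1 input tag under many peaks, depth limits every fold.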

Other observations

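Within 100 kb of these genes lay 3 further peaks that were nearer to another gene. At Spry4, these were 2 peaks on the side of Arhgap26: 1 with a score of 25 (24 ChIP tags against 1 input tag) lay 39.5 kb from the Spry4 TSS and 36.0 kb from a start of Arhgap26, and 1 with a score of 18 (25 tags against 1) lay 75.6 kb from Spry4 and 0.199 kb from Arhgap26. At Etv4, a peak with a score of 21 (21 tags against 1) lay 95.7 kb away and 13.3 kb from Meox1, a homeobox gene.

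The deposited score and the tag count order stitched regions differently. Among 5997 peaks of 500 bp, 3403 (56.7%) had a score within 1 of their ChIP tags. The excess of mean tags per 500 bp over the score was at least as large as at the Etv5 promoter in 182 of the 9165 peaks (1.99%), Etv5 included. A ranking of these genes by score puts Spry4 at the top, and by ChIP tags of the best peak Etv5.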
